A study of Rattus norvegicus with 13 samples.

Results

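The rat microRNAs rno-miR-142-3p, rno-miR-142-5p, rno-miR-223 and rno-miR-150, written below without the rat prefix, belong to the microRNAs (miRNAs, short RNAs that pair with messenger RNAs and lower their output) that are best known from cells of the blood lineages. They were taken by name, whatever their signal, and are 4 of the 350 rat miRNAs on the array used. Total RNA came from 13 primary cultures of the cortex of postnatal day 1 rats, namely 4 astrocyte cultures and 3 each for neurons, oligodendrocytes and microglia. Neurons were grown in Neurobasal medium with cytosine arabinoside, a drug that kills dividing glia. Astrocytes were grown in MEM with horse serum, kept for 10 days and shaken overnight to detach other cells. Oligodendrocytes were plated on poly-lysine from the supernatant of mixed cultures at 10 days in vitro. Microglia were the floating cells of such mixed cultures, collected at 7 days in vitro per the culture protocol, although the sample labels give 10 days for every culture. No sort for a cell type is described, so each culture is enriched for its type by medium, shaking or floating. The series text calls the replicates biological without saying which rats they came from.

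Both arms of the miR-142 hairpin are kept as mature miRNAs, and the gene is active in nearly all blood lineages. miR-223 is abundant in granulocytes and macrophages, where it restrains inflammatory signalling, and miR-150 rises as lymphocytes and monocytes mature and represses the transcription factor Myb. Microglia, the resident macrophages of the brain, descend from blood-forming progenitors of the yolk sac, whereas neurons, astrocytes and oligodendrocytes arise from the neural tube.

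Mature sequences are given for the members that matched by name to the RefSeq table (3 of 4, assembly GRCr8). The capitals are bases 2 to 8 of each miRNA (its seed, the part that pairs with a target). They are shown because these 3 members have different seeds. miR-150 had no match, so its seed was not compared. The hairpin is shown because it carries 2 of the members, whose mature arms are in capitals in that line.
miR-142-3p: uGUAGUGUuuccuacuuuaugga
miR-142-5p: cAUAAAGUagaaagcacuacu
miR-223: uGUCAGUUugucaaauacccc
miR-142 hairpin: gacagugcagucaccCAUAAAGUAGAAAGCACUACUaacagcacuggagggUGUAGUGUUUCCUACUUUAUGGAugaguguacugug
The miR-142-3p arm lies at chr10:73055155-73055177 and the miR-142-5p arm at chr10:73055119-73055139, both on the + strand and inside the hairpin at chr10:73055104-73055190. The miR-223 sequence, listed there as rno-miR-223-3p, lies at chrX:65151450-65151470 on the + strand. None of these 3 seeds was found in another of the 724 mature entries of the table. On the array, each member had 2 probes with 10 spots each, complementary to 22 and 23 bases of miR-142-3p, 18 and 19 bases of miR-142-5p, 20 and 21 bases of miR-223, and 16 and 17 bases of miR-150.

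Each array held 7000 miRNA spots, none of them saturated, and gave 160 to 258 detected miRNAs. The lowest correlation between arrays of the same type was r = 0.971, between microglia cultures. A level is given here as the log2 of the mean spot intensity relative to the 75th percentile of its own array, taken over the 119 miRNAs detected on all 13 arrays. The lowest level that was given is -8.04, or 0.38% of that percentile, and values at this floor have no order. Neurons and oligodendrocytes shared one slide and scan, and astrocytes and microglia shared the other. Differences between microglia and astrocytes, and between oligodendrocytes and neurons, therefore lie within a slide, whereas in the other 4 pairs slide and cell type cannot be told apart. Oligodendrocyte culture 2 stood apart. miRNAs listed as neuron markers made up 3.47% of its summed signal against 0.954% and 1.32% in the other oligodendrocyte cultures, and those listed as microglia markers 5.35% against 2.98% and 3.39%. Most of its microglia marker share was miR-21. Oligodendrocyte markers made up 6.05% of its summed signal against 11.1% and 10.1%. In microglia the neuron markers made up 0.096% to 0.149%, and miR-124, miR-129, miR-137 and miR-153 were detected on no microglia array. Oligodendrocyte markers made up 0.096% to 0.158% there. Those listed as astrocyte markers, which all types held, made up 13.01% to 16.2% of microglia, 20.9% to 21.2% of astrocytes, 17.9% to 18.2% of neurons and 12.4% to 12.5% of oligodendrocytes. Those listed as endothelial markers were highest in microglia, at 0.101% to 0.178%, against at most 0.016% elsewhere. The part of such cells in the results on microglia was not tested. Astrocyte cultures 3 and 4 had the noisiest backgrounds, with 99th percentiles of the negative control spots of 83.6 and 49.8 intensity units against 6.67 to 14.3 on the other arrays.

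All 4 miRNAs were highest in microglia, and in each case every microglia culture lay above every culture of the other types, as 17.9% of the 268 tested miRNAs did. All 4 also passed the F-test for any difference between types (limma; adjusted p from 2.47e-11 for miR-150 to 1.59e-08 for miR-223), as 95.5% of the tested miRNAs did. All 4 were at least 2-fold higher in microglia than in each other type with all 3 adjusted p-values past the threshold of 0.05, a pattern found for 12.7% of the tested miRNAs. In bulk RNA, fewer cells of a type and less RNA per cell cannot be told apart, here and in every result below.

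miR-142-3p, the 3' arm of the hairpin, was the member with the widest fitted range between types, at 10.4 on the log2 scale. Its range and those of miR-142-5p and miR-150 end at neuron values mostly undetected or at the floor, so the order of the ranges is not settled. In microglia its level was 2.87, 2.27 and 2.91 in cultures 1 to 3, with a mean of 2.68 ± 0.36 (SD, n = 3). In astrocytes it was -1.05, -1.05, -1.07 and -1.07, with a mean of -1.06 ± 0.01 (SD, n = 4). In oligodendrocytes it was -2.29, -1.21 and -2.04, with a mean of -1.85 ± 0.56 (SD, n = 3). All 10 glial cultures thus gave a clear signal, the 4 astrocyte cultures were nearly identical, and no 2 glial types overlapped. The longer probe was uneven in oligodendrocyte culture 2, with 7 of 10 spots well above background and a spot SD of 216 units around a mean of 314. On the shorter probe alone, that culture lay above all 4 astrocyte cultures after scaling, so the lack of overlap there depends on the uneven probe. In neurons the level was -7.77, -7.60 and -7.70, and the miRNA was detected in culture 2 only. Those neuron values correspond to 4.70, 10.1 and 5.28 intensity units, against 3426 to 5610 units in microglia.

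The difference in miR-142-3p between microglia and astrocytes was 3.74 ± 0.23 (SE) on the log2 scale, or 13.4-fold (limma, adjusted p = 6.37e-08). Of the tested miRNAs, 35.8% were called higher in microglia than in astrocytes. Between microglia and oligodendrocytes miR-142-3p differed by 4.53 ± 0.24 (SE), or 23.1-fold (limma, adjusted p = 2.08e-08), where 29.5% of the tested miRNAs were called higher in microglia. Both differences exceeded the spread between cultures many times over. With no scaling of the arrays, the difference from astrocytes was 3.08. Against neurons the level in microglia was at least 1322-fold higher (limma, adjusted p = 5.35e-12), a bound because 2 of the 3 neuron cultures had no detected signal, and 31.0% of the tested miRNAs were called higher in microglia there. These backgrounds move with the background correction and the scaling. Between microglia and astrocytes 96 miRNAs were called higher and 80 lower, against 118 and 40 with normexp and 45 and 94 with no scaling. Between microglia and neurons the counts were 83 and 140, against 117 and 110 with quantile normalization. Between microglia and oligodendrocytes they were 79 and 86, against 80 and 38 with normexp and 67 and 113 with arrays scaled to the summed signal. Here and below, a lower bound sets the mean of the brighter group against the higher of the dim miRNA's own level and the lowest detected level on each array. Such a bound holds for the processing described only. With normexp background correction, which adds 50 intensity units to every value and so compresses differences from dim signals, microglia exceeded neurons by 6.53 on the log2 scale against 10.37.

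The other 3 types also differed among themselves in miR-142-3p. miR-142-3p was at least 99.01-fold higher in astrocytes than in neurons (limma, adjusted p = 2.3e-10) and at least 57.3-fold higher in oligodendrocytes than in neurons (limma, adjusted p = 1.76e-09). With normexp these log2 differences were 3.00 against 6.63 and 2.34 against 5.84, and both still passed. The share of tested miRNAs called higher was 25.4% for astrocytes over neurons and 19.8% for oligodendrocytes over neurons. With quantile normalization the calls were 125 higher and 94 lower in astrocytes, against 68 and 150, and 105 higher and 102 lower in oligodendrocytes, against 53 and 156. Between astrocytes and oligodendrocytes the difference was 0.79 ± 0.23 (SE), or 1.73-fold (limma, adjusted p = 0.0118), where 25.7% of the tested miRNAs were called higher in astrocytes (69 higher and 82 lower, against 50 and 116 with the summed signal). That last call was lost without oligodendrocyte culture 1, where the difference was 0.57 (adjusted p = 0.0547), and it grew to 1.11 (adjusted p = 0.000194) without culture 2.

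**Figure D1:**
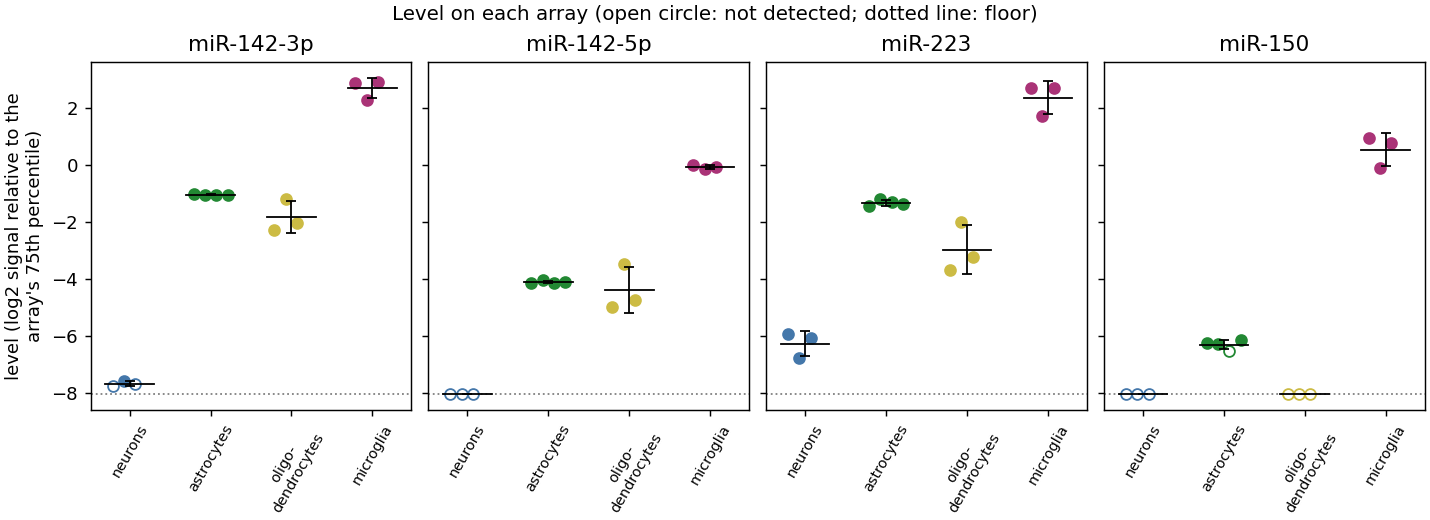
Level of each of the 4 miRNAs (log2 relative to the array's 75th percentile, vertical axis) in every culture of the 4 types, with open circles for cultures in which the miRNA was not detected horizontal bars for type means, error bars for the SD and a dotted line for the floor. Microglia are the highest type in every panel, the 4 astrocyte cultures lie close together for miR-142-3p (-1.05 to -1.07), and miR-142-5p and miR-150 are at the floor of -8.04 in all neurons.

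miR-142-5p, the other arm of the same hairpin, was detected in all glial cultures and in none of the 3 neuron cultures. In microglia its level was -0.00, -0.15 and -0.09 in cultures 1 to 3, with a mean of -0.08 ± 0.07 (SD, n = 3). In astrocytes it was -4.14, -4.06, -4.14 and -4.12, with a mean of -4.11 ± 0.04 (SD, n = 4). In oligodendrocytes it was -5.00, -3.49 and -4.75, with a mean of -4.41 ± 0.81 (SD, n = 3). Microglia were separate from all others, whereas oligodendrocyte culture 2 lay above and cultures 1 and 3 lay below all astrocyte cultures. miR-142-5p was 16.4-fold higher in microglia than in astrocytes, a log2 difference of 4.03 ± 0.27 (SE; limma, adjusted p = 1.46e-07). It was 20.1-fold higher in microglia than in oligodendrocytes (limma, adjusted p = 1.37e-07) and at least 249-fold higher than in neurons (limma, adjusted p = 3.01e-10). With normexp the log2 differences from astrocytes, oligodendrocytes and neurons were 3.03, 3.12 and 3.92, against 4.03, 4.33 and 7.96, and all still passed.

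Between astrocytes and oligodendrocytes, miR-142-5p did not pass the test, with a log2 difference of 0.30 (limma, adjusted p = 0.398). The outcome rested on oligodendrocyte culture 2, without which the difference was 0.76 (adjusted p = 1.14e-05). Neurons were separated from both other types. miR-142-5p was at least 15.2-fold higher in astrocytes than in neurons (limma, adjusted p = 1.22e-07) and at least 12.4-fold higher in oligodendrocytes than in neurons (limma, adjusted p = 4.44e-07). With normexp these log2 differences shrank to 0.89 and 0.80, against 3.93 and 3.63, and both still passed.

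miR-223, a miRNA of granulocytes and macrophages, was the only member detected on all 13 arrays. In microglia its level was 2.69, 1.70 and 2.67 in cultures 1 to 3, with a mean of 2.35 ± 0.57 (SD, n = 3). In astrocytes it was -1.47, -1.22, -1.32 and -1.37, with a mean of -1.34 ± 0.10 (SD, n = 4). In oligodendrocytes it was -3.70, -2.02 and -3.23, with a mean of -2.98 ± 0.86 (SD, n = 3). The order from microglia to astrocytes to oligodendrocytes held for every culture, with no overlap. In neurons the level was -5.95, -6.79 and -6.09, with a mean of -6.28 ± 0.45 (SD, n = 3), below every oligodendrocyte culture.

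Microglia exceeded astrocytes in miR-223 by 3.70 ± 0.38 (SE) on the log2 scale, or 12.96-fold (limma, adjusted p = 4.65e-06). The difference was 40.4-fold against oligodendrocytes (limma, adjusted p = 3.81e-07) and 395-fold against neurons (limma, adjusted p = 2.61e-09). miR-223 also passed the test in every pair among the other types. Astrocytes were 3.11-fold above oligodendrocytes (limma, adjusted p = 0.00339) and 30.5-fold above neurons (limma, adjusted p = 3.1e-07). Oligodendrocytes were 9.80-fold above neurons (limma, adjusted p = 1.74e-05). The differences from neurons varied with the processing, on the log2 scale from 6.06 with normexp to 10.00 with quantile normalization for microglia, from 2.61 to 6.23 for astrocytes and from 1.38 to 4.66 for oligodendrocytes, and all still passed. With no scaling, microglia exceeded astrocytes by 3.04, and with normexp they exceeded oligodendrocytes by 4.68.

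The neuronal signal of miR-223 was weak. Its mean spot intensity in the 3 neuron cultures was 16.6, 17.8 and 16.2 units, where the 99th percentile of the negative control spots was 11.5, 6.67 and 14.3 units on the same arrays. Of its 60 spots on those arrays, 18 were well above background by the scanner's own call. Before scaling, the neuron cultures differed by 1.10-fold between lowest and highest, and after scaling by 1.79-fold. The neuron cultures thus lay closer together before scaling than after it.

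miR-150 is typical of mature lymphocytes and monocytes. Of the members it had the largest fitted difference of microglia over astrocytes and over oligodendrocytes, but not over neurons. In microglia its level was 0.94, -0.14 and 0.77 in cultures 1 to 3, with a mean of 0.52 ± 0.58 (SD, n = 3). It was detected in none of the neuron cultures and in none of the oligodendrocyte cultures, which all stood at the floor. In astrocytes the level was -6.26, -6.30, -6.53 and -6.14, with a mean of -6.31 ± 0.17 (SD, n = 4), and culture 3 had no detected signal. The lowest microglia culture therefore lay far above the highest culture of any other type.

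miR-150 was at least 114-fold higher in microglia than in astrocytes (limma, adjusted p = 1.48e-10). The bound was 318-fold against oligodendrocytes (limma, adjusted p = 4.85e-11) and 378-fold against neurons (limma, adjusted p = 1.21e-11). These p-values rest in part on the SD of 0 that the floor sets in neurons and oligodendrocytes. With normexp, microglia exceeded astrocytes by 4.201, oligodendrocytes by 4.28 and neurons by 4.47 on the log2 scale, against fitted differences of 6.83, 8.56 and 8.56, and all still passed.

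By the fitted log2 difference of microglia over astrocytes, miR-150 ranked 1 of 268, ahead of miR-142-5p at rank 6, miR-142-3p at rank 8 and miR-223 at rank 9. Over oligodendrocytes miR-150 ranked 1, miR-223 2, miR-142-3p 6 and miR-142-5p 7. Over neurons miR-142-3p ranked 2, miR-223 3, miR-150 4 and miR-142-5p 5. The values of miR-150 behind these ranks, and all values over neurons, are fitted against a dim signal. With normexp, miR-223 exceeded miR-150 in the difference over oligodendrocytes, at 4.68 against 4.28. The median log2 difference of the 4 members was 3.89 over astrocytes and 4.93 over oligodendrocytes, whereas over all tested miRNAs it was 0.02 and 0.00.

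The astrocyte signal of miR-150 sat at the edge of what the arrays measured. Its mean spot intensity was 11.1, 9.46, 13.7 and 22.1 units in cultures 1 to 4, where the 99th percentile of the negative controls was 9.03, 10.6, 83.6 and 49.8 units. Only culture 1 exceeded that percentile, and 14 of 80 spots were well above background. miR-150 was called higher in astrocytes than in neurons, at least 3.32-fold (limma, adjusted p = 1.41e-05), and than in oligodendrocytes, at least 2.79-fold (limma, adjusted p = 2.95e-05). Both calls were lost with normexp background correction, where the log2 differences were 0.27 and 0.08, and with a higher floor, where both were 0.40. No fold is given between oligodendrocytes and neurons, which both had no detected signal.

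The fraction of the microglial level that remained in another type was nearly the same for 3 of the members in astrocytes. Astrocytes held 7.34% of the microglial mean of miR-142-3p (range over 4 cultures 7.28% to 7.40%), 6.10% of that of miR-142-5p (5.98% to 6.35%) and 7.38% of that of miR-223 (6.76% to 8.01%). For miR-150, whose astrocyte signal was at the edge of detection, 0.84% (0.716% to 0.942%) is an upper limit under this processing. The first 3 members thus shared a narrow band, and miR-150 lay below it in every astrocyte culture. With no scaling of the arrays the fractions were 12.1%, 9.91%, 12.1% and 1.38% in the same order. With normexp they were 8.53%, 12.3%, 8.77% and 5.29%. The microglia markers measured, miR-146a, miR-146b, miR-21 and miR-342-3p, made up 13.4% to 15.0% of the summed signal of astrocytes and 28.5% to 35.5% of that of microglia. Most of the astrocyte sum was miR-21, at 14366 to 28706 intensity units against 695 to 1461 for miR-146a. In microglia miR-21 gave 13517 to 25756 units and miR-146a 8586 to 12600. Among the markers miR-146a stood at 5.94% of its microglial mean in astrocytes, miR-342-3p at 18.4%, miR-146b at 47.1% and miR-21 at 60.3%, so these markers did not share one fraction. The part of microglia in the astrocyte cultures was not tested.

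**Figure D2:**
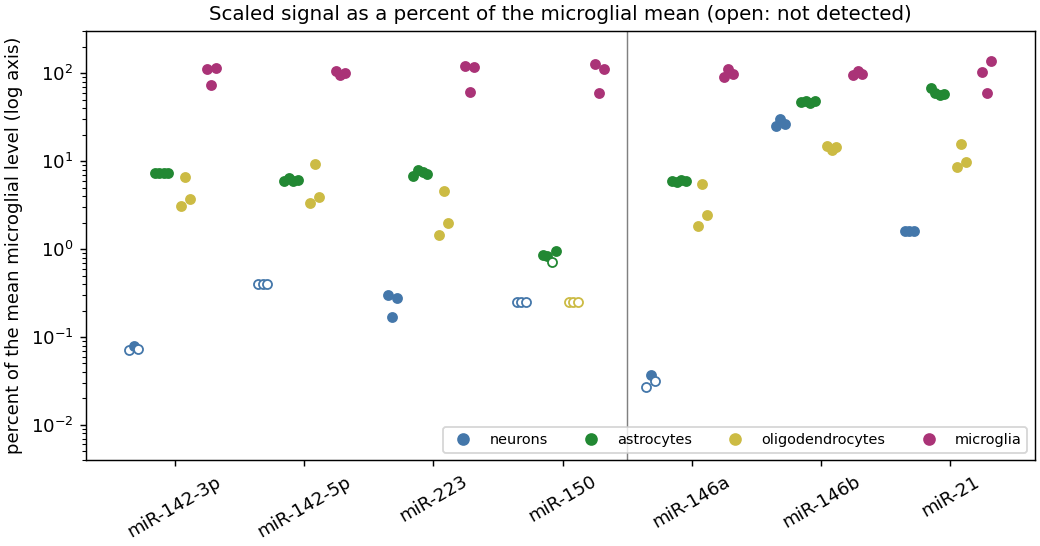
Scaled signal of the 4 members (left of the line) and of miR-146a, miR-146b and miR-21 in each culture as a percent of the microglial mean (log axis; points are cultures of the 4 types, and open circles were not detected, those in a level row being at the floor). In astrocytes miR-142-3p, miR-142-5p, miR-223 and miR-146a lie between 5.86% and 8.01%, whereas miR-150, near background there, is drawn at a mean of 0.84%, miR-146b of 47.1% and miR-21 of 60.3%.

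In oligodendrocytes the fractions differed from culture to culture. miR-142-3p stood at 3.13%, 6.60% and 3.71% of its microglial mean in cultures 1 to 3. miR-142-5p stood at 3.31%, 9.40% and 3.93%, and miR-223 at 1.44%, 4.60% and 1.99%. All 3 miRNAs were highest in culture 2, the culture that also held the largest shares of microglia and neuron markers and the smallest share of oligodendrocyte markers. Most of that microglia marker share was miR-21, at 3406 units against 593 for miR-146a, 239 for miR-342-3p and 18.1 for miR-146b. As a percent of the microglial mean, miR-21, miR-146a and miR-342-3p were highest in culture 2. The listed marker miR-146b was lowest there, at 13.5% against 14.9% and 14.6%. Relative to the mean of the other oligodendrocyte cultures, culture 2 was higher by 0.95 for miR-142-3p, 1.38 for miR-142-5p and 1.44 for miR-223 on the log2 scale, where the median of the 188 miRNAs detected on all oligodendrocyte arrays was 0.13. Before scaling, culture 2 was also the brightest for each, with 291 against 250 and 281 units for miR-142-3p, 60.0 against 38.3 and 43.1 units for miR-142-5p, and 166 against 94.3 and 123 units for miR-223. For miR-142-3p, the culture 2 values include the uneven longer probe, and the shorter probe gave 268 units there against 186 and 208. The part of other cells in that culture was not tested. Without it, microglia exceeded oligodendrocytes by 4.85 for miR-142-3p, 4.79 for miR-142-5p and 5.82 for miR-223 on the log2 scale.

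The cultures of microglia also differed in some members and not in others. Culture 2 lay below the mean of the other microglia cultures by -0.62 for miR-142-3p, -0.98 for miR-223 and -0.99 for miR-150 on the log2 scale, but by only -0.10 for miR-142-5p. The median difference over 152 miRNAs was -0.12. For miR-142-3p the longer probe was uneven in culture 2, with a spot SD of 1702 units around a mean of 3895, against SDs of 632 and 245 in cultures 1 and 3. On the shorter probe alone, culture 2 was still the lowest after scaling, but by less. For miR-146a, culture 2 was the highest of the microglia at 4.14, against 3.85 and 3.97. The median SD between the microglia cultures was 0.23 over the miRNAs detected on all their arrays.

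Changes of the members between types were then set against each other within each culture, with exact two-sided permutation tests over cultures adjusted over 6 comparisons. The smallest p possible was 0.0286 with 3 against 4 cultures and 0.1 with 3 against 3. From astrocytes to microglia, miR-142-5p changed by 0.29 more than miR-142-3p on the log2 scale (exact p = 0.0286, adjusted p = 0.0571). That sign turned to -0.50 with normexp background correction and to -0.27 in the deposited table. miR-223 changed by -0.04 relative to miR-142-3p over the same step (exact p = 0.714). From oligodendrocytes to astrocytes, miR-223 changed by 0.85 more (exact p = 0.0286, adjusted p = 0.0571) and miR-142-5p by 0.49 less (exact p = 0.0286, adjusted p = 0.0571) than miR-142-3p. From oligodendrocytes to microglia, miR-223 changed by 0.81 more (exact p = 0.1, adjusted p = 0.15), and the difference for miR-142-5p was -0.20 (exact p = 0.5, adjusted p = 0.6). None of these 6 comparisons passed after adjustment. A comparison outside that family was added after the values were seen and left out astrocyte culture 3. In it, miR-150 changed from astrocytes to microglia by 3.02 more than miR-142-3p, with no overlap between groups. The exact permutation p was 0.1, the smallest possible with 3 against 3. That excess rests on astrocyte signals of miR-150 at the edge of detection. With normexp and all astrocyte cultures, the changes were 4.201 for miR-150 and 3.52 for miR-142-3p, against 6.83 and 3.74 in the main fit. The size of the excess is therefore not settled.

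The probes of both miR-142 arms and of miR-223 gave like changes, and those of miR-150 did not where the signal was dim. From astrocytes to microglia the log2 differences of the shorter and the longer probe were 3.86 and 3.66 for miR-142-3p, 4.05 and 4.01 for miR-142-5p, and 3.73 and 3.67 for miR-223. For miR-150 they were 7.21 and 6.70, with 1 astrocyte array at the floor for the shorter probe. Over oligodendrocytes the miR-150 probes differed more, at 7.51 and 8.56, and the shorter of them was at the floor on all 3 oligodendrocyte arrays. Over neurons the miR-150 probes gave 7.51 and 9.16. From neurons to astrocytes the shorter miR-150 probe changed by 0.30 and the longer by 2.47, and from oligodendrocytes to astrocytes by 0.30 and 1.86. The calls of miR-150 in astrocytes thus rested mainly on the longer probe.

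**Figure D3:**
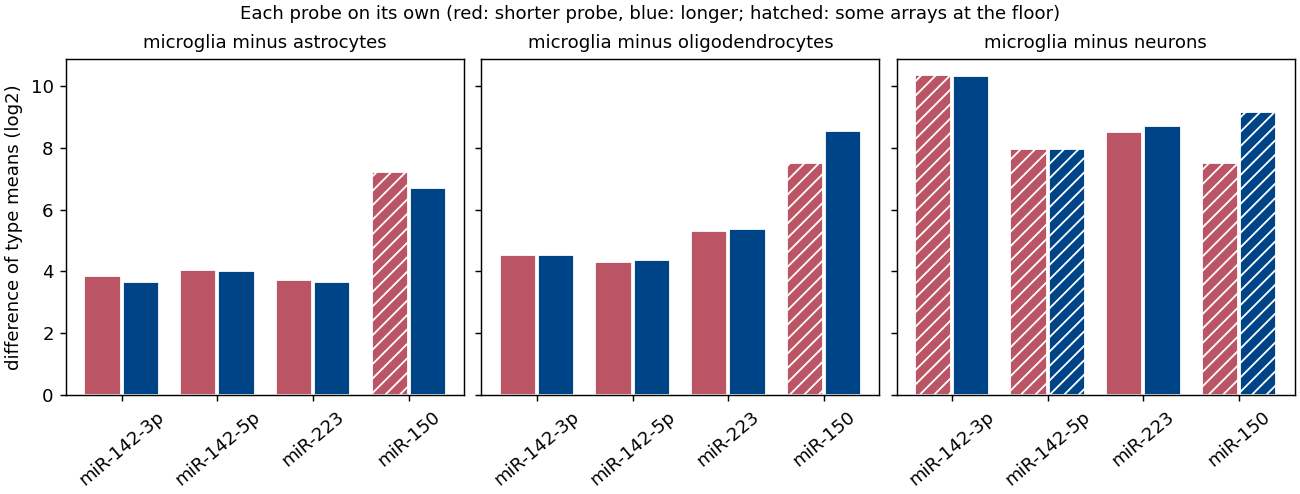
Log2 difference of type means for each probe on its own, microglia minus each other type (3 panels; red bars are the shorter probe of a miRNA and blue bars the longer, and hatched bars have arrays of the dimmer type at the floor). The bars of a miRNA are nearly level over astrocytes, from 3.66 to 4.05 for both miR-142 arms and miR-223, and part most for miR-150.

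Other miRNAs known from blood cells did not share one pattern. Of 30 on a list drawn up from general knowledge, 27 were matched by name on the array and 24 were tested. Higher in microglia than in astrocytes were 16, lower were 5 and 3 did not pass, where 35.8% of all tested miRNAs were called higher. The median log2 difference was 0.71 against 0.02 over all tested miRNAs. With no scaling of the arrays 8 were higher and 6 lower, with a median of 0.05 against -0.09. All tested miRNAs then gave 45 higher and 94 lower. Over oligodendrocytes the counts were 17 higher, 5 lower and 2 not passed, with a median of 1.69 against 0.00. Of all tested miRNAs, 29.5% were called higher there. Over neurons the counts were 18 higher, 6 lower and none not passed, with a median of 1.51 against -0.58, where 31.0% of all tested miRNAs were called higher. With no scaling the counts were 13 higher and 6 lower over oligodendrocytes (median 1.32) and 12 higher and 6 lower over neurons (median 0.81), and with the 75th percentile over all miRNAs the median over neurons was 2.55. Among the listed miRNAs, miR-126 at 4.45 and miR-146a at 4.07 differed from astrocytes by more than miR-142-3p, miR-223 and miR-142-5p did. That order depended on the processing, and miR-126 was detected in 1 of 4 astrocyte cultures. With normexp, miR-126 gave 1.66 and miR-146a 3.93, against 3.52, 3.45 and 3.03 for the members in that order. In the deposited table miR-126 gave 3.21 and miR-146a 3.58, against 3.71, 3.69 and 3.44.

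The 8 of these with the highest mean level moved in both directions. miR-16, which targets cell cycle genes, was 2.43-fold higher in microglia than in astrocytes (limma, adjusted p = 7.19e-09). miR-23a and miR-24, which are made from a shared transcript, were higher by 1.69-fold (limma, adjusted p = 7.23e-06) and 1.42-fold (limma, adjusted p = 3.06e-06). miR-20a, of the miR-17 cluster, was 1.55-fold higher (limma, adjusted p = 0.00137). miR-21, an abundant miRNA of activated cells, was 1.57-fold higher (limma, adjusted p = 0.0492), with overlap between the groups, and its log2 difference of 0.65 was 0.00 with quantile normalization and -0.12 in the deposited table. With no scaling of the arrays, none of these 5 passed, and the differences of miR-20a, miR-21 and miR-24 turned to -0.03, -0.01 and -0.16. In the other direction, miR-130a was 5.91-fold lower (limma, adjusted p = 8.38e-10), miR-99a 3.05-fold lower (limma, adjusted p = 4.04e-10) and miR-29a 2.36-fold lower (limma, adjusted p = 3.19e-07) in microglia than in astrocytes.

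Red cell and platelet miRNAs on the list were weak. miR-451, a red cell miRNA, was detected in all 3 neuron cultures at a mean level of -4.64 ± 0.15 (SD, n = 3) and in all 3 microglia cultures at -5.72 ± 0.57 (SD, n = 3). It was detected in no astrocyte and no oligodendrocyte culture. miR-144, made from the same transcript as miR-451, and miR-196a were detected on none of the arrays. miR-126, a miRNA of endothelium and megakaryocytes, was at -2.71 ± 0.29 (SD, n = 3) in microglia and -5.38 ± 0.14 (SD, n = 3) in neurons, and was detected in 1 of 4 astrocyte and none of 3 oligodendrocyte cultures. Microglia minus neurons was -1.08 on the log2 scale for miR-451 (limma, adjusted p = 0.000685), a difference that also lies between slides. The sign turned, without passing the test, with normexp (0.30), with the 75th percentile over all miRNAs (0.13), with quantile normalization (0.35) and in the deposited table (0.23).

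**Figure D4:**
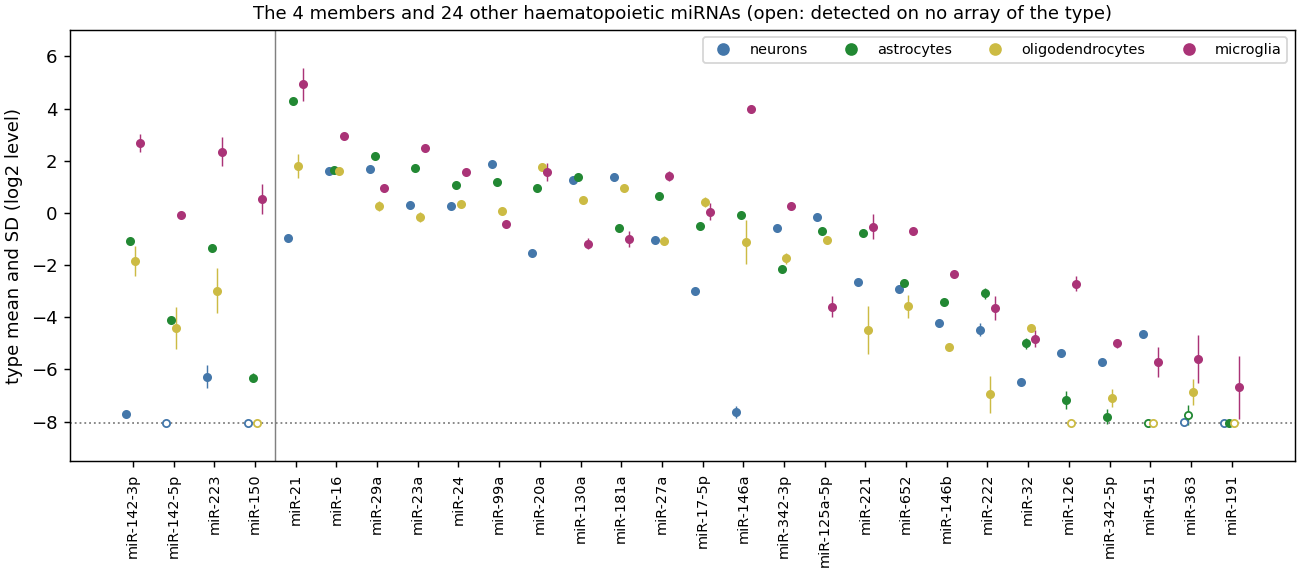
Mean level of each cell type with its SD (log2 relative to the array's 75th percentile, vertical axis; n = 3 or 4 cultures) for the 4 members, left of the line, and the 24 other tested miRNAs known from blood cells, ordered by mean level. The dotted line is the floor at -8.04 and open circles mark types in which no array detected the miRNA. Microglia are on top for each member but below astrocytes for miR-29a, miR-99a and miR-130a.

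Likeness was measured over the 4 type means as the mean absolute difference of log2 levels after each miRNA was centred on its own mean. The members were left out of the search for nearest miRNAs. Between members, miR-142-5p and miR-223 were 0.502 apart, and miR-142-3p was 0.748 from miR-223 and 0.916 from miR-142-5p. miR-150 was 1.61 to 2.23 from each other member. These distances include neuron means that lie at the floor for miR-142-5p and miR-150, and the oligodendrocyte mean of miR-150 at the floor. The order of likeness between members is therefore not settled. Outside the members miR-146a, a miRNA induced by inflammatory signals, was the nearest to miR-142-3p, at 0.374 (r = 0.998 over 13 arrays, which share the 2 slides). The next nearest were miR-21 at 1.54, miR-18a at 2.10, miR-15b at 2.11 and miR-20a at 2.22. The levels of miR-146a were 3.85, 4.14 and 3.97 in microglia, from -0.04 to -0.10 in astrocytes, -1.79, -0.19 and -1.36 in oligodendrocytes and -7.87, -7.40 and -7.65 in neurons. It thus had the same order of types as miR-142-3p, and in both only neuron culture 2 was detected among neurons.

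Outside the members, the nearest to miR-142-5p were miR-21 at 1.06, miR-146a at 1.27 and miR-200c at 1.36. The nearest to miR-223 were miR-21 at 1.00, miR-146a at 1.11 and miR-200c at 1.53. For miR-150 they were miR-200c at 1.41, miR-141 at 1.66 and miR-126 at 1.69. miR-200c and miR-141 were at the floor in neurons, astrocytes and oligodendrocytes, and miR-150 was at the floor in neurons and oligodendrocytes. These distances are therefore set in large part by the floor and give no order of likeness. The order of means from microglia through astrocytes and oligodendrocytes to neurons was shared by miR-142-3p, miR-223 and miR-142-5p, and by 4.48% of the tested miRNAs. In that sequence, only astrocytes and oligodendrocytes for miR-142-5p did not pass the test in the main fit. For miR-142-3p the same step no longer passed with the summed signal (0.43, limma adjusted p = 0.0736). It was also lost without oligodendrocyte culture 1 (0.57, limma adjusted p = 0.0547).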

How the data were processed

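Per the labels, 100 ng of total RNA of each culture was labelled with Cy3 and hybridized to 1 array, and the only extraction named is that for qPCR. Per the file headers, arrays were read by the authors in Feature Extraction 9.5.3.1 (Agilent; design placed on rn4). The spot intensity the authors deposited was background-subtracted, per the file headers, and each miRNA had a detection call. The deposited series table holds log2 values whose normalization is not given in the sources used here, and it served as an alternative. Outlier spots were dropped, spots were averaged per probe and probes per miRNA, and values were divided by the array's 75th percentile over miRNAs detected on all arrays, floored and put on the log2 scale. The 268 miRNAs detected on at least 3 arrays were fitted over all 4 types with limma 3.58.1 in R 4.3.3 (lmFit, eBayes, Benjamini-Hochberg over all tested miRNAs, threshold 0.05). Tables and figures were made in Python 3.11.15. The members and lists were chosen with earlier results of these data known. The named miRNAs are the members, the 8 listed blood-cell miRNAs of highest mean level, those not detected, and the nearest neighbours of each member outside the members. The cell type markers, miR-451 and miR-126 were named after their values were seen. No 2 arrays were identical. Same-numbered cultures of different types did not deviate together (r from -0.34 to 0.20 over 18 pairs, 3 of them over 0.1), so replicate numbers were not used as a block. The fit was tested on simulated data. Precision is limited by the number of arrays, and p-values measure the spread between these cultures where signals lie above the floor. A group at the floor has an SD of 0 by construction, as miR-150 in neurons and oligodendrocytes and miR-142-5p in neurons. All types share 1 estimate of the spread, so the p-values of such miRNAs in part reflect the floor.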

Additional observations from a re-analysis of the deposited data

How the results depend on the processing

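Over 27 alternatives, the calls of the 4 members among the types by the F-test all held wherever the member was still tested, and so did 597 of 604 pair results. The exceptions were these. The astrocyte to oligodendrocyte difference of miR-142-3p no longer passed when arrays were scaled to the summed signal (0.43, adjusted p = 0.0736), and leaving out single cultures moved it from 0.57 to 1.11. That of miR-142-5p passed in 1 setting, without oligodendrocyte culture 2, with values over left-out cultures from 0.0059 to 0.76. The miR-150 differences of astrocytes from neurons and oligodendrocytes no longer passed with normexp (0.27, adjusted p = 0.384, and 0.081, adjusted p = 0.999) or with the floor at the 5th percentile of detected signals (0.40 for both, adjusted p = 0.104 and 0.142). The cause of these changes was not tested. With the replicate number as a block, no call of a member changed. The weakest that still passed was astrocytes against oligodendrocytes for miR-142-3p (0.79, adjusted p = 0.0481). The astrocyte percent of microglia ranged over the alternatives from 6.16% to 12.1% for miR-142-3p, 5.15% to 12.3% for miR-142-5p, 6.16% to 12.1% for miR-223 and 0.70% to 5.29% for miR-150. Background correction also moved the median of all tested miRNAs, which for microglia over astrocytes was 0.02, to 0.40 with normexp. Only miR-223 was left when detection on all arrays was required, which tests fewer miRNAs and gave 89 to 101 called miRNAs per pair against 151 to 223. Normexp gave 132 between astrocytes and neurons against 218, 81 between astrocytes and oligodendrocytes against 151, and 133 between oligodendrocytes and neurons against 209, and no scaling gave 100 between astrocytes and oligodendrocytes. Levels near the floor, which are all neuron values and miR-150 in astrocytes and oligodendrocytes, are limited by signal over background.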
